A study of Mus musculus with 2 samples.

Results

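Cadherin, protocadherin and neuronal adhesion genes were described in a mouse glioblastoma stem cell line with and without knockdown of Gli2, a zinc finger transcription factor of the Hedgehog pathway. The genes were taken by name: every probe whose RefSeq accession belonged to a numbered Cdh, Celsr, Cntn, Cntnap, Nrxn, Nlgn or Ncam gene, to any Pcdh gene, or to L1cam, Chl1 or Nrcam. This gave 162 probes for 97 genes, of 34560 named probes for 23784 genes on the array. No measured value enters the rule, but the families were picked with earlier results of these arrays known, among them those of Cntnap2 and Ncam1, so all values below are descriptions.

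The 2 groups were cells stably transduced with a lentivirus carrying a Gli2 shRNA and cells of the same line transduced with a lentivirus carrying a non-target control shRNA. Both groups share the line, which was grown without serum, with EGF and bFGF, as neurospheres from brain tumours induced de novo in mice by a Sleeping Beauty (SB) transposon. It is 1 cell line, and each group is 1 array, so no difference has a replicate check and no p-value is given.

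Classical cadherins hold cells together by binding the same or a related cadherin on the neighbouring cell, with calcium, and connect to actin through catenins. Protocadherins are related proteins that act mainly in the nervous system, where the clustered alpha, beta and gamma genes give single neurons distinct surface identities. Contactins, contactin-associated proteins, Ncam and L1 proteins guide axons and organise nodes and paranodes, and neurexins on the presynaptic side bind neuroligins on the postsynaptic side. In gliomas, adhesion proteins of these families take part in cell-cell contact and migration.

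Each value is the processed Cy3 signal of a probe, which the scanner software had corrected for background. The 75th percentile of the signals was 399 on the Gli2 shRNA array, against 329 on the control array, so log2 differences were taken after dividing each array by its 75th percentile, as Gli2 shRNA minus control. The ± beside a difference is the error modelled by the scanner software for the spots. It does not cover the cultures, and n is 1 array per group throughout. A probe was called measured where the software marked it well above background, and a gene was represented by its brightest probe. Signals of different probes are not comparable with each other. Gli2 itself had a signal of 57.9 on the Gli2 shRNA array and 98.1 on the control array, a log2 difference of -1.04 ± 0.22, which is 48.7% of the control level.

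Both arrays measured 61 of the 97 adhesion genes, 6 were measured in Gli2 shRNA cells alone, 6 in control cells alone and 24 in neither. Among the 61, 3 were higher by 2-fold or more in Gli2 shRNA cells (Cdh13, Celsr3 and Pcdh11x) and 3 were lower, Cntnap2 and Pcdh19 among them. That is 9.84% of the measured members, beside 3.63% of the 14563 named genes that both arrays measured. By direction, 1.84% of all measured genes were higher and 1.79% lower. Cntn4, measured in Gli2 shRNA cells alone, was higher by at least 4.64-fold; among all genes measured on that array only, 31.1% had a bound of 2-fold or more. A gene measured on 1 array only passed the filter through that array alone, so these bounds describe single genes and not the group. No member measured on the control array only had a bound of 2-fold on its brightest probe, beside 18.2% of such genes overall.

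The median log2 difference over the 61 members was -0.03, against 0.003 over all genes. Below 0 lay 55.7% of the members and 49.7% of all genes. The SD of the differences was 0.58 over the members, against 0.42 over all genes. Quartiles were -0.29 and 0.13 for the members and -0.19 and 0.20 for all genes. The middle of both distributions was thus about equally wide, and the larger SD lies in the tails. For the clustered protocadherins alone the SD was 0.24. The 23 measured clustered protocadherins lay between -0.47 and 0.61, and none was past 2-fold. All 6 genes past 2-fold were among the other 38 (15.8%), beside 3.63% of all genes. With 23 genes, a count of 0 past 2-fold is near that share, so it does not set the clusters apart. Next inside the 2-fold limit were Ncam1 (-0.85), Cdh6 (-0.76), Cdh16 (0.70) and Cdh2 (-0.61), and the nearest beyond it were Pcdh11x (1.08) and Celsr3 (1.15). In total RNA of a culture, fewer cells expressing a gene and less RNA per cell cannot be told apart.

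**Figure D1:**
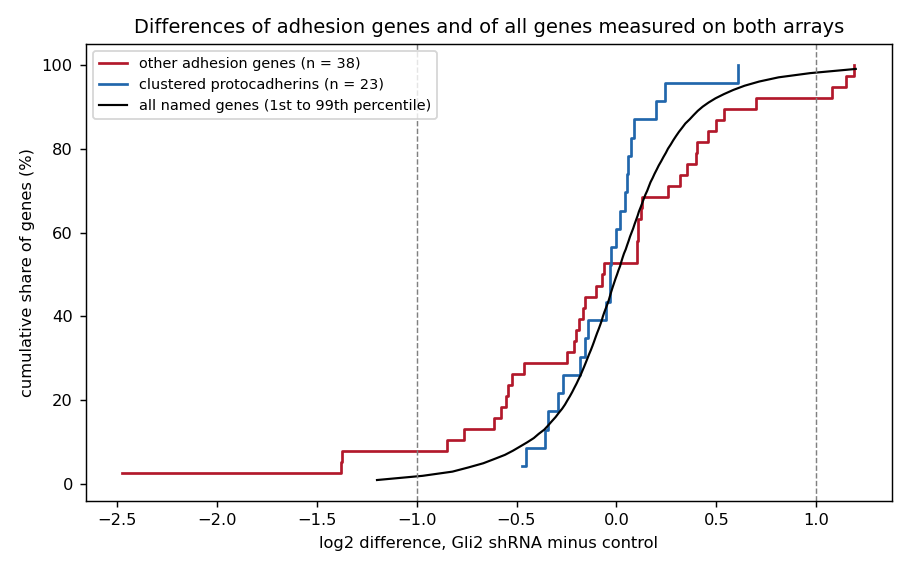
Cumulative share of genes (percent, y axis) against the log2 difference, Gli2 shRNA minus control (x axis), for the 38 measured adhesion genes outside the protocadherin clusters (red), the 23 clustered protocadherins (blue) and all named genes (black, 1st to 99th percentile). Dashed lines mark 2-fold. The red curve reaches past 2-fold on both sides with 3 genes each, and the blue curve stays between -0.47 and 0.61.

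Start-site sequences are shown for the members with large differences that the RefSeq promoter table (GRCm38.p6) holds, and for Pcdh10, which has a partial GLI motif. Each run is the 250 bases before an annotated start, 5′ to 3′ on the strand of the gene. Capitals in Celsr3 mark an RE1 element, the sequence bound by the repressor Rest, searched as TTCAGCACC and, 2 letters on, GGNCAG. Capitals in Pcdh10 mark TGGGTGGT, the reverse complement of the last 8 letters of the GLI consensus GACCACCCA, and capitals in Cntnap2 mark an E-box (CACCTG).
Celsr3, chr9:108825795-108826044, plus strand: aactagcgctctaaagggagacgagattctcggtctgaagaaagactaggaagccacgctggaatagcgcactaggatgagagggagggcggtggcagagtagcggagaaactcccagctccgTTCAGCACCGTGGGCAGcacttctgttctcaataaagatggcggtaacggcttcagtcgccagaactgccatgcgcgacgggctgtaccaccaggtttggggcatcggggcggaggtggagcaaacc
Pcdh19, chrX:133688994-133689243, minus strand: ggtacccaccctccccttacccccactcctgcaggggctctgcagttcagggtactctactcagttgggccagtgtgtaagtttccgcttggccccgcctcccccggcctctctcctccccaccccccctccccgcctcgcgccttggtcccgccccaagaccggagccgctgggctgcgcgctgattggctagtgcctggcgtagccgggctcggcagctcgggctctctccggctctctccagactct
Pcdh10, chr3:45378148-45378397, plus strand: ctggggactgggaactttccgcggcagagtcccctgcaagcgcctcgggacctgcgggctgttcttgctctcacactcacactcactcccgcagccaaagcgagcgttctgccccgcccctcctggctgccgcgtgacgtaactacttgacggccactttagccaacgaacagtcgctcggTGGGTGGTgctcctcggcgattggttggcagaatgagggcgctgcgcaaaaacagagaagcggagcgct
Cntnap2, first of 2 annotated starts, chr6:45059811-45060060, plus strand: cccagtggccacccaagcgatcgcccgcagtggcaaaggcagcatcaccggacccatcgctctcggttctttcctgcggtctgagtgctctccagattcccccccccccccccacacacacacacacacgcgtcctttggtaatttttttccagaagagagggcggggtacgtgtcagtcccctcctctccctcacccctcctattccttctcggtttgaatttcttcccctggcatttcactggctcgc
Cntnap2, second start, chr6:47244146-47244395, plus strand: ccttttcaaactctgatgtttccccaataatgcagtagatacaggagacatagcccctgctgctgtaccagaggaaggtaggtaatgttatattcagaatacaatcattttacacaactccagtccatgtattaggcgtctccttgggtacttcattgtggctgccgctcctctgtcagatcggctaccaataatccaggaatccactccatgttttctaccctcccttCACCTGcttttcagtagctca
Cntn4, downstream of 2 starts, chr6:106118692-106118941, plus strand: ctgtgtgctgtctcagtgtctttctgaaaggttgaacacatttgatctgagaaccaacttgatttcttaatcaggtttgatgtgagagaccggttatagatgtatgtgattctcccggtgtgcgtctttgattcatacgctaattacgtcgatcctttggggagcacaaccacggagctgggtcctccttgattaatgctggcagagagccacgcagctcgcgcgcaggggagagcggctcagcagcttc

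The table held 52 start sites for 40 of the 97 members. Both strands were searched in the same 250 bases of these and of all 32851 start sites. The GLI consensus GACCACCCA was in none of the member windows and in 0.225% of all windows. Its 8-letter part ACCACCCA was in 1 member window (1.92%), that of Pcdh10, with its first printed capital 69 bases before the start, and in 1.28% of all windows. The RE1 letters, 127 bases before the Celsr3 start, were in 6 of all 32851 windows. The left part of RE1 alone (TTCAGCACC) was in 3 member windows, of Celsr3, Cdh9 and Nlgn1 (5.77%), and in 0.301% of all windows. The E-box CACCTG was in 17.3% of member windows and 17.2% of all. The RE1 and E-box searches were chosen with the values known, and a match is a description of these letters and not a binding site. Member windows had a median GC content of 58.2%, against 52.4% over all windows, and a median of 10.5 CpG dinucleotides, against 6.

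Among the classical type I and type II cadherins, no gene was past 2-fold, and 7 of the 10 measured genes lay below 0 (median -0.17). Over all genes, 3.63% were past 2-fold and 49.7% lay below 0. Cdh2, the N-cadherin of neural progenitors and neurons, had a signal of 5622 on the Gli2 shRNA array and 7088 on the control array, a difference of -0.61 ± 0.20. Cdh6, a type II cadherin of the developing nervous system and kidney, had 1200 against 1681 on its brightest probe, a difference of -0.76 ± 0.20, and -0.44 and -0.40 on its other probes. Both genes were thus lower on the Gli2 shRNA array on every probe, by less than 2-fold. Cdh10, a further type II cadherin of the brain, differed by -0.55 ± 0.23.

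The other cadherins of these types were close to their control levels. Cdh4, the R-cadherin of retina and brain, had a signal of 6000 in Gli2 shRNA cells and 4608 in control cells (0.10 ± 0.20), and its other probes gave 0.04 and 0.22. Cdh11, a cadherin of mesenchymal and neural cells, had 5480 and 3543 (0.35 ± 0.20, and 0.17 on the other probe). Cdh20 and Cdh22 differed by -0.16 and -0.20. Cdh1, the E-cadherin of epithelia, and Cdh5, the cadherin of vascular endothelium, were not well above background on either array, at signals of 3.67 and 3.74 on the Gli2 shRNA array and 6.02 and 3.29 on the control array. Cdh3, Cdh7, Cdh9, Cdh18, Cdh19 and Cdh24 were also measured on neither array.

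The 3 measured atypical cadherins all lay above 0, while 49.7% of all genes lay below it. Cdh13, or T-cadherin, lacks a cytoplasmic tail, is anchored in the membrane by a lipid and binds adiponectin and LDL. It had a signal of 269 in Gli2 shRNA cells and 97.2 in control cells, a difference of 1.19 ± 0.21 or 2.28-fold. Its second probe, at 118 and 50.2, gave 0.96 ± 0.23, so that both probes were higher and 1 was past 2-fold. After normexp background correction, which pulls dim probes toward 0, the Cdh13 difference was 0.84. Cdh26 differed by 0.46 ± 0.20, while its second probe, measured on the control array only, was lower by at least 1.76-fold. Cdh16, first described in kidney, differed by 0.70 ± 0.23 on 1 probe.

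The Celsr genes encode the flamingo cadherins, 7-pass receptors of planar cell polarity, axon tract formation and ciliary beating. Celsr3 had a signal of 1581 in Gli2 shRNA cells and 588 in control cells, a difference of 1.15 ± 0.20 or 2.22-fold. Its difference was 1.12 with normexp and with cyclic loess. Its other probes were near background: the probe at 21.4 and 21.1 gave -0.26 ± 0.34, and the probe measured on the Gli2 shRNA array only gave a bound of 0.24. The Celsr3 call therefore rests on 1 bright probe, and the mean of its probes measured on both arrays was 0.45. Celsr1 differed by 0.50 ± 0.20 and Celsr2 by 0.26 ± 0.20, with -0.03 and -0.02 on the other Celsr2 probes. Rest, whose motif stands in the Celsr3 window shown above, had 584 on the Gli2 shRNA array and 646 on the control array, a difference of -0.42 ± 0.20, and its part in the Celsr3 value was not tested.

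**Figure D2:**
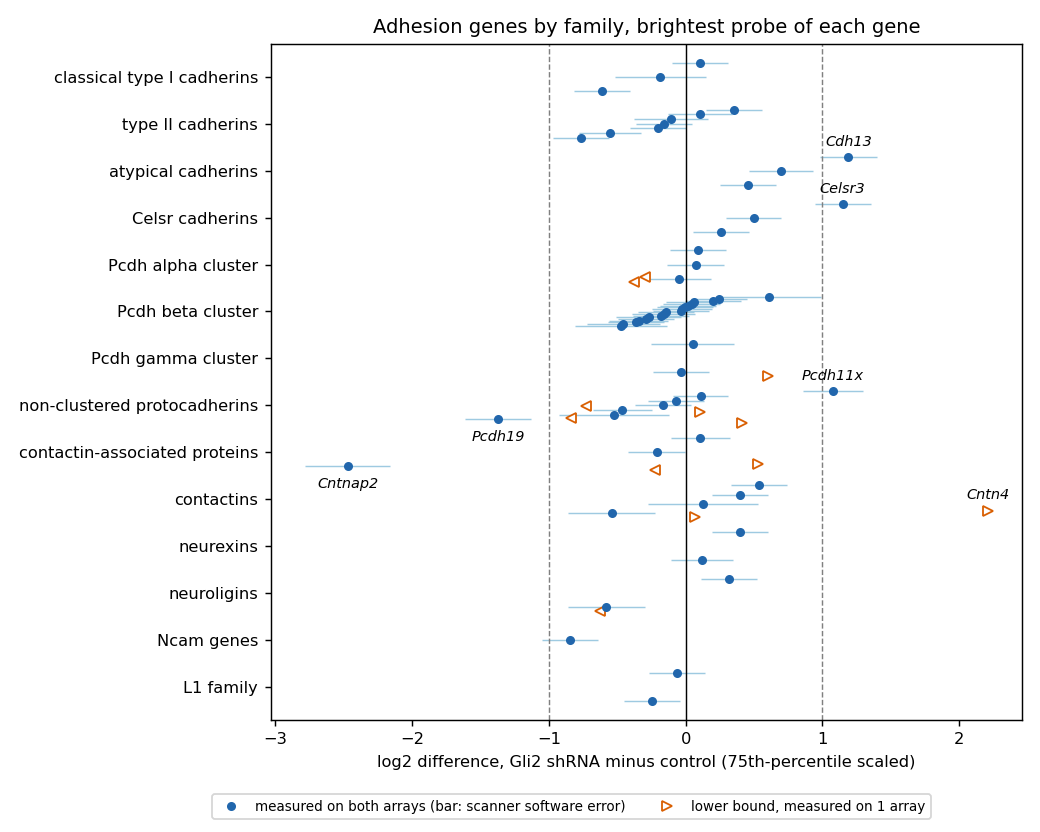
Log2 difference, Gli2 shRNA minus control (x axis), of each adhesion gene by family (y axis), from the brightest probe. Blue points are genes measured on both arrays, 1 of which is not drawn, with the scanner software's error, orange open triangles are lower bounds of the 12 genes measured on 1 array, and dashed lines mark 2-fold. Cdh13, Celsr3 and Pcdh11x lie beyond 2-fold on the right with the bound of Cntn4, and Cntnap2 and Pcdh19 on the left.

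Non-clustered protocadherins went both ways. Pcdh19, an X-linked delta protocadherin whose human counterpart is mutated in an epilepsy of girls, had a signal of 37.2 in Gli2 shRNA cells and 79.4 in control cells, a difference of -1.37 ± 0.24 or 2.59-fold lower. Its second probe, at 7.04 and 33.5, was measured on the control array only and was lower by at least 2.67-fold. Both probes of Pcdh19 were therefore past 2-fold in the same direction. With normexp, however, the brighter one differed by -0.72 and the other by -0.62, both within 2-fold. Pcdh11x, another X-linked delta protocadherin, went the other way, at 129 in Gli2 shRNA cells and 50.7 in control cells (1.08 ± 0.22, 2.11-fold, and 0.52 with normexp). Its second probe was measured on neither array.

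The delta protocadherins fall into delta1 genes (Pcdh1, Pcdh7, Pcdh9, Pcdh11x) and delta2 genes (Pcdh8, Pcdh10, Pcdh17, Pcdh18, Pcdh19), which differ in the motifs of their cytoplasmic tails. This split was made with the values known. Of the 5 delta2 genes, 3 were measured on both arrays (Pcdh10, Pcdh18 and Pcdh19), with differences of -1.37 to -0.17, and the other 2 on the control array only. Pcdh10, which recruits an actin regulator complex through its tail, had 81.7 in Gli2 shRNA cells and 92.9 in control cells on its brightest probe (-0.46 ± 0.22). Its second probe gave -0.65 ± 0.31. A further probe, at 8.62 and 39.7, was lower by at least 3.17-fold, although its difference with normexp was -0.68. Pcdh17 and Pcdh8, which passed the filter only through the control array, had bounds of -0.84 and -0.73. Pcdh18 was at 1825 and 1691, a difference of -0.17 ± 0.20.

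Of the 4 delta1 genes, 3 were measured on both arrays, 2 above 0 and 1 below, with differences of -0.07 to 1.08. Over all genes, 49.7% lay below 0. Of the 5 measured delta1 probes, 4 lay above 0 and 1 below, and 3 of these 5 belong to Pcdh9. Over all named probes, 50.9% lay below 0. Pcdh9 gave 0.11 ± 0.20 on its brightest probe and 0.48 and 0.10 on the others, and Pcdh1 gave -0.07 ± 0.20. Pcdh7 was measured on neither array by its 3 probes. Outside these classes, Pcdh15, a protein of the tip links of sensory hair cells, was near background, at 16.7 and 19.8 on its brightest probe (-0.52 ± 0.40). With median scaling, which raised the median of all genes by 0.14, Pcdh9 was at 0.25 and Pcdh18 at -0.03.

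Clustered protocadherins on chromosome 18 all differed by less than 2-fold where both arrays measured them, as did 14035 of all 14563 measured genes. Each alpha and gamma gene has its own first exon joined to constant exons that the cluster shares, so a probe in a constant exon reads many genes at once, while beta genes consist of single exons. In the beta cluster 18 of 22 genes were measured, 12 below 0 and 6 above, with a median of -0.09. The share below 0 was 66.7%, beside 49.7% of all genes. The largest difference was that of Pcdhb11, at 31.1 in Gli2 shRNA cells and 16.8 in control cells (0.61 ± 0.38), which was 0.01 with normexp. Pcdhb7, at 473 and 501, differed by -0.36 ± 0.20, and the dim Pcdhb9 by -0.47 ± 0.34. Pcdhb21, at 610 and 498, differed by 0.02 ± 0.20. Of the 18, 1 gene, Pcdhb11, was past 1.5-fold (5.56%), beside 12.5% of all genes.

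**Figure D3:**
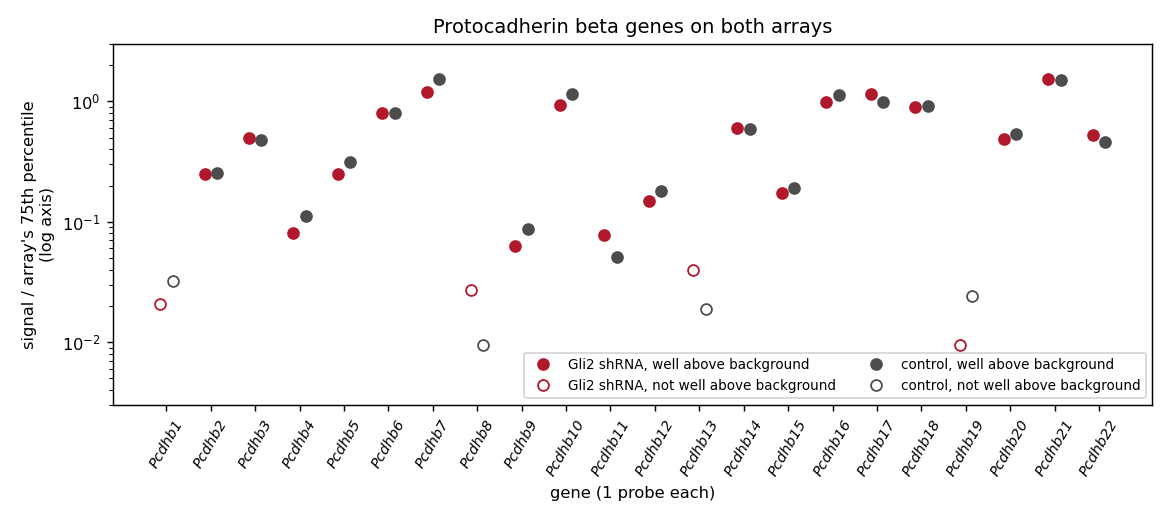
Signal divided by the array's 75th percentile (log y axis) of the 22 protocadherin beta genes (x axis, 1 probe each) in Gli2 shRNA cells (red) and control cells (grey). Filled points are well above background and open points are not. Pcdhb1, Pcdhb8, Pcdhb13 and Pcdhb19 are open on both arrays, and the filled pairs differ by -0.47 to 0.61 on the log2 scale.

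Among alpha genes, Pcdhac2 was at 560 in Gli2 shRNA cells and 434 in control cells (0.09 ± 0.20, and 0.16 on its other probe), Pcdha8 gave 0.07 ± 0.21 and Pcdha9 -0.05 ± 0.24. Pcdha4 and Pcdha12 were measured on the control array only, with bounds within 2-fold. Among gamma genes, Pcdhga9 was at 7151 and 6034 on its brighter probe (-0.03 ± 0.20) and at 224 and 183 on the other (0.01 ± 0.21). Whether the brighter probe lies in a gamma constant exon was not tested. A further 23 clustered protocadherin genes have no named probe here and were not analysed.

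Contactins are immunoglobulin proteins tethered to the membrane by a lipid anchor. Cntn4, a contactin of axon targeting, had a signal of 71.8 in Gli2 shRNA cells and 4.75 in control cells, where it was not well above background, which makes it higher by at least 4.64-fold. Its other 2 probes were measured on neither array, and with normexp the difference of the measured probe was 0.62. Cntn1, which pairs with Cntnap1 at paranodes, was at 6089 and 3813 (0.40 ± 0.20, and 0.39 on its second probe). Cntn3 was at 252 and 143 (0.54 ± 0.21). Cntn6, at 25.2 and 30.2, differed by -0.54 ± 0.32, and Cntn5 by 0.13 ± 0.40.

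Cntn3, Chl1, Cntn6 and Cntn4 follow each other on chromosome 6 in the GRCm38.p6 annotation with 0 protein-coding genes between them. Their differences along that order were 0.54, -0.25, -0.54 and a bound of 2.21. On these probes the neighbours did not share 1 direction. The other Chl1 probes gave 0.25 and 0.14, however, and Cntn6 was dim (25.2 and 30.2, with an error of 0.32).

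Contactin-associated proteins join axons to glia and cluster potassium channels beside the node. Cntnap2, or Caspr2, had a signal of 22.8 in Gli2 shRNA cells and 104 in control cells, a difference of -2.47 ± 0.31 or 5.55-fold lower. The signal in Gli2 shRNA cells was close to the lowest that was well above background on that array (15.2). With normexp the difference was -1.17. Cntnap2 was past 2-fold under all 9 alternatives that gave it a value, but some of these could not change that value. Leaving out the dim filter keeps the same difference, and only the brightest probe enters the mean of probes. The deposited table holds the same signals minus a constant per array. A minimum signal of 50 on both arrays removes the gene. A second Cntnap2 probe, assigned to another RefSeq transcript (NM_025771 against NM_001004357), was measured on neither array. Cntnap4 had probes that disagreed: the brighter, at 137 and 131, gave -0.21 ± 0.21, and the other, at 43.1 in Gli2 shRNA cells and 3.10 in control cells, was higher by at least 2.78-fold, although by 0.28 with normexp. Cntnap1 gave 0.11 ± 0.21 and -0.09 ± 0.23 on its probes. Cntnap3 and Cntnap5c were measured on neither array.

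**Figure D4:**
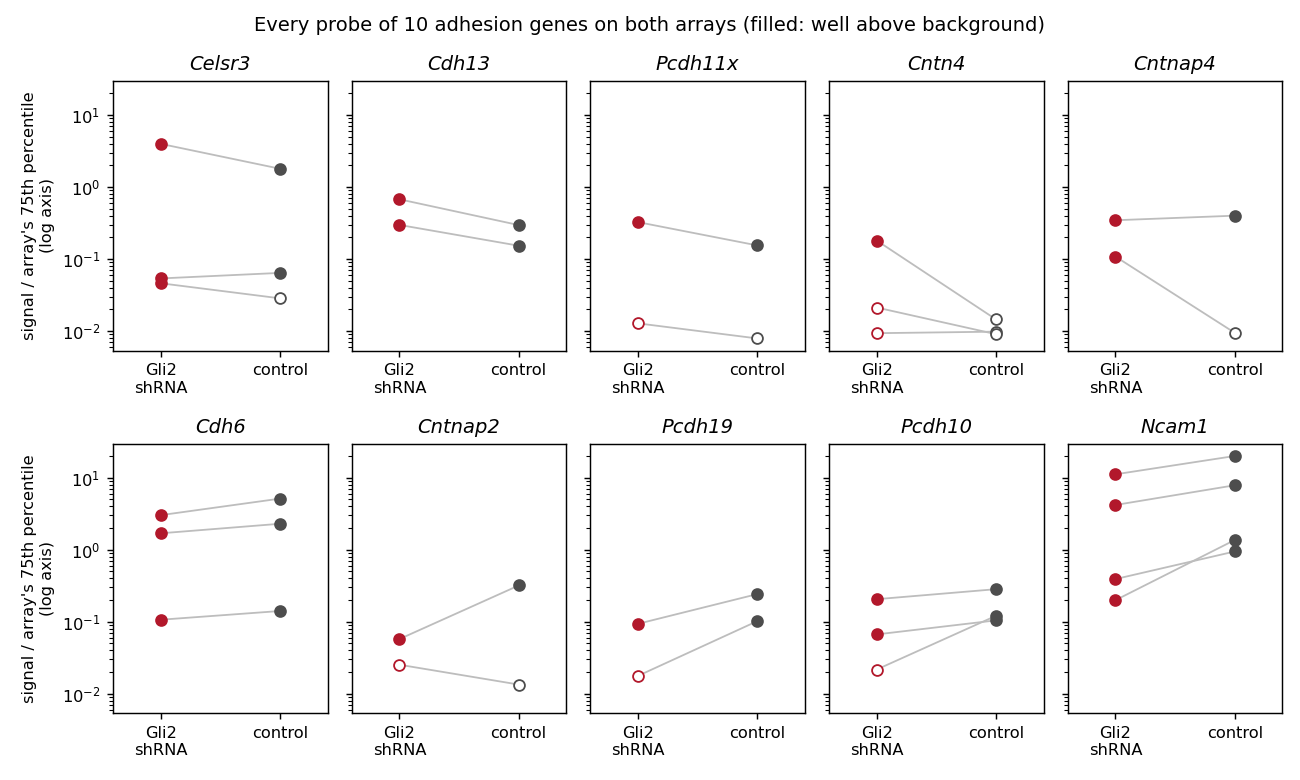
Signal divided by the array's 75th percentile (log y axis) in Gli2 shRNA cells (left, red) and control cells (right, grey) for every probe of 10 adhesion genes, with a line joining the same probe. Filled points are well above background and open points are not. All 4 Ncam1 probes, every Cdh6 probe and both Pcdh19 probes are lower in Gli2 shRNA cells, and both Cdh13 probes are higher. The probes of Celsr3, Cntn4, Cntnap2 and Cntnap4 do not all go 1 way. For Cntn4 and Cntnap2 the probe going against the brightest is open on both arrays.

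Neither of the neurexins described here, presynaptic partners of neuroligins and other postsynaptic proteins, was past 2-fold. Nrxn2 was at 2154 in Gli2 shRNA cells and 1346 in control cells (0.40 ± 0.20) and gave 0.64 ± 0.20 on its second probe. Nrxn3 was measured by 1 of its 4 probes, at 70.8 and 53.7 (0.12 ± 0.23).

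Among the neuroligins, Nlgn2, the neuroligin of inhibitory synapses, was at 7170 in Gli2 shRNA cells and 4741 in control cells (0.32 ± 0.20, and 0.04 on a dim second probe). Nlgn1, the neuroligin of excitatory synapses, was at 32.8 and 40.5 (-0.58 ± 0.28). Nlgn3, whose shed protein is known to promote glioma growth, was measured on the control array only, at 13.6 and 19.3, and was lower by at least 1.54-fold.

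Ncam1, the neural cell adhesion molecule of neurons, glia and many tumours, was lower in Gli2 shRNA cells on all 4 of its probes, by amounts that differed between them. The probes assigned to transcript NM_001113204 had 4429 and 1661 in Gli2 shRNA cells, against 6570 and 2576 in control cells, differences of -0.85 ± 0.20 and -0.91 ± 0.20. The probes assigned to NM_010875 had 155 and 79.1 in Gli2 shRNA cells, against 310 and 447 in control cells, differences of -1.27 ± 0.21 and -2.78 ± 0.21. The brightest probe is thus within 2-fold, while both dimmer probes are past it, the dimmest in Gli2 shRNA cells by 6.85-fold. With normexp the 4 values were -0.77, -0.79, -1.04 and -2.12. The mean over the probes, at -1.45, was past 2-fold. Which exons the probes read was not analysed here. Ncam2 was measured on neither array.

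In the L1 family, whose members carry axon growth and bind ankyrins, Chl1 was at 9320 in Gli2 shRNA cells and 9122 in control cells (-0.25 ± 0.20), and its other probes gave 0.25 ± 0.20 and 0.14 ± 0.21. Chl1 therefore has no settled direction. Nrcam was at 959 and 827 (-0.06 ± 0.20). L1cam was not well above background on any of its 3 probes.

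Where several probes of a member were measured on both arrays, all went the same way for 13 of 18 such genes. The exceptions were Celsr2, Celsr3, Chl1, Cntnap1 and Pcdhga9. The same share over all genes was not taken, so this count describes these probes only. Cdh26 and Cntnap4 are not among the 18. Their second probes, measured on the control array only and the Gli2 shRNA array only, went against the brightest. Over single probes, 9 of the 86 adhesion probes measured on both arrays were past 2-fold, beside 3.2% of all named probes.

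Partner genes of the adhesion proteins came from 10 lists chosen by function. Of all genes measured on both arrays, 3.63% were past 2-fold and 49.7% lay below 0. A list of this size with none past 2-fold is near that share. Catenins and other proteins of the cadherin tail held no gene past 2-fold among 13 measured (median 0.02). Ctnnb1, the beta-catenin, was at 5264 in Gli2 shRNA cells and 5221 in control cells (-0.27 ± 0.20, and -0.01 on its second probe), and Ctnnd2, the delta-catenin of neurons, differed by -0.56 ± 0.20. Of 14 measured partners and cluster regulators of protocadherins, none was past 2-fold and 11 lay below 0 (median -0.13), with Ctcf, which sets promoter choice in the clusters, at -0.16 ± 0.20. Cadherin shedding enzymes (11 measured) and repressors of cadherin genes (7 measured) also held none past 2-fold. Adam10, which sheds N-cadherin, differed by -0.55 ± 0.20, and the repressor Zeb2 by 0.56 ± 0.20, with 1 of its other probes at -0.31. Desmosomal and cadherin-related genes held none past 2-fold among 7 measured.

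Partners of neurexins and neuroligins held 3 genes past 2-fold among 21 measured (14.3%), beside 3.63% of all genes, with a median of 0.01. Lin7c was at 3078 in Gli2 shRNA cells and 1111 in control cells, 2.29-fold higher, and its relative Lin7a was at 91.1 and 202, 2.69-fold lower. Both encode small scaffold proteins that bind Cask, which itself differed by 0.01 ± 0.20. Apba1, another presynaptic scaffold, was 2.18-fold higher (127 and 48.0), and Shank3, a postsynaptic scaffold, fell short of 2-fold at 0.93 ± 0.21.

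Among 20 measured partners of contactins, L1 and Ncam proteins, Kcna2, a potassium channel clustered with Cntnap2 beside the node, was 2.44-fold higher (171 and 58.0). Ptprz1, a receptor phosphatase that binds Cntn1, was 2.12-fold lower, at 5561 in Gli2 shRNA cells and 9709 in control cells, and its second probe was lower still, at -1.57. The remaining synaptic adhesion genes held none past 2-fold among 25 measured, with Flrt2 at 0.96 ± 0.21 and Flrt3, a ligand of latrophilins, at 0.70 ± 0.20. Tenm2, a teneurin measured on the control array only, was lower by at least 2.16-fold, as was Fat3, a large cadherin, by at least 2.27-fold. Large cadherin and planar polarity genes held none past 2-fold among 12 measured on both arrays. The share over all genes was 3.63%.

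Of 25 measured immunoglobulin adhesion genes outside the families above, 3 were past 2-fold, all lower, beside 1.79% of all genes lower by 2-fold. Jam2, a junctional adhesion molecule, was at 3083 in Gli2 shRNA cells and 5832 in control cells, 2.29-fold lower. Alcam, an adhesion molecule of axons and leukocytes, was 3.73-fold lower at a low signal (19.2 and 59.2). Vcam1, which binds leukocytes on endothelium, was 7.45-fold lower on the 1 of its 2 probes that was measured. For Alcam and Vcam1, the signal in Gli2 shRNA cells was close to the lowest well above background on that array (15.2). The size of both folds is therefore uncertain. Earlier results of these arrays were known when the 10 lists were set.

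Markers of the labelled cell type were present. Of 7 stem cell markers 6 were measured on both arrays, with a summed signal of 120608 in Gli2 shRNA cells and 103460 in control cells before scaling, most of it from 1 probe of Fabp7. After scaling, 5 of these 6 lay below 0 (median -0.10), with Cd44 at -0.80 and Nes at 0.47. Prom1, the other stem cell marker, was measured on the Gli2 shRNA array only, at 20.2 in Gli2 shRNA cells and 14.6 in control cells. Of 6 neuron markers 5 were measured on both arrays, none past 2-fold, with unscaled sums of 21894 and 23102, most of it from Map2. After scaling, Tubb3 (0.74), Syt1 (0.22) and Rbfox3 (0.05) lay above 0, and Map2 (-0.49) and Snap25 (-0.12) below. Stmn2, a marker of young neurons, was not well above background. Of 5 astrocyte markers 4 were measured on both arrays, with unscaled sums of 7446 and 7075, most of it from Slc1a3. After scaling all 4 lay below 0, from -0.62 to -0.12 (median -0.33). Gfap was measured on the control array only, with a bound of -0.64. Of 5 oligodendrocyte lineage markers 3 were measured, with unscaled sums of 339 and 360, and after scaling all 3 lay below 0 (median -0.41). Of all genes measured on both arrays, 49.7% lay below 0. Of 5 endothelial markers 2 were measured, with unscaled sums of 121 and 123, and Cdh5, Cldn5 and Tek were not well above background on either array. Of 5 microglial markers 1 was measured on both arrays (Csf1r, -0.13 after scaling), and Cx3cr1 and Ptprc on neither. Aif1 and P2ry12 were measured on the control array only, with bounds of -0.49 and -0.61. The unscaled microglial sums were 457 and 433, most of it from Csf1r. Of 5 fibroblast or pericyte markers 1 was measured on both arrays, with unscaled sums of 53.2 and 55.6. Col1a1 was measured on the control array only, and Pdgfrb, Dcn and Lum on neither. Of 4 epithelial markers 1 was measured on both arrays, with unscaled sums of 51.7 and 49.6. Epcam was measured on the control array only, and Cdh1 and Krt8 on neither. The part of any such cells in the differences above was not tested.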

How the data were processed

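Gene expression was measured on 2 Agilent 1-colour arrays, 1 per group, so the number of arrays limits the precision. The array design was 074809, and Feature Extraction 12.1.0.3 quantified the images, per the file headers; the deposited intensity of each spot is background-subtracted by that software. The authors' deposited value table is on a log2 scale. It equals the log2 intensity minus 1 constant per array (8.64 for the Gli2 shRNA array, 8.36 for the control array), so its centring is known from this comparison only. Column medians were -3.69 and -3.55.

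Control spots and outlier spots (120 on the Gli2 shRNA array, 126 on the control array) were left out, and no spot was saturated. Spots of a probe were averaged as log2 values and scaled by the 75th percentile of non-control probes. Of 56595 probes, 34560 were named through RefSeq accessions in a GRCm38.p6 gene table, which gave names, chromosomes and gene order. For a probe measured on 1 array, the other array was given the larger of the probe's own signal and the smallest signal called measured there (15.2 on the Gli2 shRNA array, 12.8 on the control array), which gives "at least N-fold". A bound that uses the own signal carries its software error.

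The size rule was 2-fold. The members, lists and rules were chosen with earlier results of these data known. Named are members past 2-fold, the 2 brightest and the highest and lowest of each family, members whose probes disagree, and partner genes past 2-fold with up to 4 others a list; further members were described after their values were seen. The alternatives were normexp background correction (limma 3.58.1, R 4.3.3, offset 50, on median spot signals), other scalings and normalizations, the deposited table, other filters, the mean of probes, outlier spots kept, and a 1.5-fold rule. 1 member counted here is not reported by name. The calculation was run on simulated data as a check of the code. Noise there was smaller than the software error and changes were planted in brighter probes only, so calls on dim probes were not checked. Tools were Python 3.11.15, numpy 2.4.6 and pandas 2.3.3.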

Additional observations from a re-analysis of the deposited data

How the results depend on the processing

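With median scaling, quantile normalization, cyclic loess, the 75th percentile of probes measured on both arrays, the deposited table or outlier spots kept, the same 6 adhesion genes were past 2-fold, 3 in each direction. Under these, 3.62% to 3.85% of all genes were past 2-fold. Normexp left 1 higher (Celsr3) and 2 lower, Cntnap2 among them, which is 4.92% of the members beside 1.15% of all genes. Normexp gave Gli2 -0.64. A minimum signal of 50 on both arrays left 3 higher and 1 lower among 48 genes, since it removes Cntnap2 and Pcdh19. That is 8.33%, beside 2.41% of all genes. Without the filter on dim probes, 7 were higher and 9 lower among 97 genes, beside 11.96% of all genes. The mean of probes gave 2 higher and 4 lower, 9.84% of the members beside 3.23% of all genes, with Celsr3 lost and Ncam1 gained. A 1.5-fold rule gave 5 higher and 6 lower, 18.03% of the members beside 12.5% of all genes. The median of the members ran from -0.08 (normexp) to 0.10 (median scaling). The signs of the 6 genes held under every alternative that gave them a value. Some alternatives, such as leaving out the dim filter, could not change a sign. Apart from filters and probe rules, whose construction removes or adds genes, the cause was not tested. Dim signals limit Cntn4, Cntnap2, Pcdh19 and Pcdh10. No paired analysis was possible because each group has 1 array.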
